A study of Mus musculus with 12 samples.

Results

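The epidermal kallikreins Klk5, Klk6, Klk7, Klk8, Klk10, Klk11, Klk13 and Klk14 and the inhibitor genes Spink5 and Spink12 were examined in dorsal skin of BALB/c mice. The 10 genes were picked from the 36400 genes of the deposited table by their names, under a rule that uses no measured value. All 10 were among the 21890 genes that were tested because their level averaged 0.1 FPKM or more, FPKM being fragments scaled for transcript length and library size. Kallikreins are secreted serine proteases that keratinocytes of the upper epidermis make as inactive precursors. Once active, KLK5, a trypsin-like enzyme, and KLK7, a chymotrypsin-like enzyme, cut the desmosomal proteins that hold corneocytes together, so that the outermost cells can be shed. Spink5 encodes LEKTI, a protein with many Kazal-type domains that blocks these enzymes, and its loss in humans causes Netherton syndrome, in which the barrier fails and allergic disease is common.

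The study asked how human umbilical cord mesenchymal stem cells (MSCs) alter an atopic dermatitis-like inflammation. Female mice, 6 weeks old when obtained, were sampled on day 30, and 1 library was made from each of 3 mice in each of 4 groups. The control group received the acetone and olive oil vehicle without DNCB. The DNCB group was sensitized with 1% 1-chloro-2,4-dinitrobenzene (DNCB), a contact allergen, and then challenged repeatedly with 0.5% DNCB. The scMSC and scivMSC groups received the same DNCB and, from day 13, 4 doses of 2000000 MSCs each. In scMSC mice each dose was 100 µL given under the skin, and in scivMSC mice it was split evenly, 50 µL going under the skin while the other 50 µL entered a tail vein. DNCB mice and control mice received no cells, and cell-free injections are not described in the sources used here, so the MSCs and the act of injection cannot be told apart. The libraries held 63877153 to 75134001 estimated counts, and replicates of a group correlated at r = 0.928 to 0.957 across genes on the log2 scale. Keratinocyte markers were present in every library, with a summed FPKM of 1781 to 10507 for 8 basal and 4195 to 12761 for 8 suprabasal markers. The 6 skeletal muscle markers summed to 14648 to 20598 FPKM in control and to 4115 to 10772 FPKM in the other libraries. In DNCB against control 5 of the 6 passed as lower, beside 12.4% of all tested genes. In bulk skin, fewer cells of a type and less RNA per cell cannot be told apart.

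All 8 kallikrein members lie on the plus strand of chromosome 7 in a stretch of 160.8 kb, chr7:43690418-43851181 in GRCm38. Their order is Klk14, Klk13, Klk11, Klk10, Klk8, Klk7, Klk6 and Klk5, with Klk12 between Klk13 and Klk11 and Klk9 between Klk10 and Klk8. The antisense gene 2310002F09Rik overlaps Klk14, Klk13, Klk11, Klk10 and Klk8, but reached at most 0.364 FPKM in any library, and Klk7, Klk6 and Klk5 overlap no other gene. Klk13 also contains the same-strand gene Gm44814, which had a mean of 1.01 FPKM. Gm44814 had 0.479, 0.159 and 0.963 FPKM in control and 4.01, 1.78 and 2.61 FPKM in DNCB. In scMSC it had 0.179, 0 and 0 FPKM, and in scivMSC 0.590, 0.797 and 0.521 FPKM. Whether Gm44814 and Klk13 share reads was not tested. Klk14 overlaps the same-strand gene Gm44817, which had a mean of 0.0714 FPKM.

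The bases before the start sites of Klk14, Klk13 and Klk6, the kallikreins that passed the test when scMSC was compared with DNCB, are shown with those of Klk7, which passed in no comparison. The sequences are RefSeq windows on GRCm38.p6, plus strand, 5′ to 3′, at chr7:43690168-43690417, chr7:43712317-43712566, chr7:43824294-43824498 and chr7:43811044-43811293. Capitals mark CACCC, the core bound by Krüppel-like factors, and GGGCGG, the GC box, or their reverse complements, which overlap once in Klk7.
Klk14: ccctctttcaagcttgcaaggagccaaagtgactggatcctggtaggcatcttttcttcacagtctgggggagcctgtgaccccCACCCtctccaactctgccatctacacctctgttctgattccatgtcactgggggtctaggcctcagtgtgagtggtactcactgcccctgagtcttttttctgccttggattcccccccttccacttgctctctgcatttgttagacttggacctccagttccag
Klk13: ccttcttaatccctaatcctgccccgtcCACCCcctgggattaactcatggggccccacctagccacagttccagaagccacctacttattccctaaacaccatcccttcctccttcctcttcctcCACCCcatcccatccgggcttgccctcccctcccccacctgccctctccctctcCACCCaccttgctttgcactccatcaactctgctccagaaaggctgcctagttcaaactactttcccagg
Klk6: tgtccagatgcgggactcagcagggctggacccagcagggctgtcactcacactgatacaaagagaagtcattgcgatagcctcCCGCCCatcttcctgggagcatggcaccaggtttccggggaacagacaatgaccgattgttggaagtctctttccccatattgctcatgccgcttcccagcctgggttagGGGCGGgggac
Klk7: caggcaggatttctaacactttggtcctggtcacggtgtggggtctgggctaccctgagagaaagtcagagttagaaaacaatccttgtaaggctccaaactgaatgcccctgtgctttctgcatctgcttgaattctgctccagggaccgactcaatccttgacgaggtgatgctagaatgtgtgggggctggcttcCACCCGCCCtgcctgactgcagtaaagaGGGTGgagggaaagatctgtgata
The table matched 8 of the 8 kallikreins with 10 windows of 250 bases, and both strands were searched. CACCC was in 7 of the 10 windows and in 52.0% of all 32851 windows of the table. GGGCGG was in 4 of the 10, at Klk8, Klk7 and both Klk6 windows, and in 32.7% of all windows. The AP-1 letters TGANTCA, the TATA letters TATAAA and the E-box CACGTG were in 0 of the 10, against 6.75%, 12.4% and 6.02% of all windows. The C/EBP letters TTGCNNAA were in both Klk11 windows and in 9.56% of all windows, and the STAT letters TTCNNNGAA were at Klk10 and in 7.02% of all. Klk14, Klk13, Klk7 and 1 of the Klk6 windows all held CACCC or its reverse complement. The Klk6 match begins 15 bases before the RefSeq start, past the end of the stretch printed above, which stops where the GENCODE gene begins.

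In control skin the order of FPKM levels was Klk7, Spink5, Klk5, Klk11, Klk8, Klk6, Klk10, Klk13, Klk14 and Spink12. Mean levels ran from 103 ± 43.0 FPKM for Klk7 and 66.8 ± 6.78 FPKM for Spink5 (SD, n = 3) down to 1.96 ± 0.460 FPKM for Klk14 and 0 for Spink12. Neighbours from Klk7 down to Klk10, and Klk13 and Klk14, overlapped in range, so only the steps from Klk10 to Klk13 and from Klk14 to Spink12 exceeded the spread of the 3 libraries. In DNCB skin Klk6 stood next to Klk7, at 109 ± 25.2 against 126 ± 19.7 FPKM with overlapping ranges, and the ranges separated only below Klk6 and below Klk13.

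**Figure D1:**
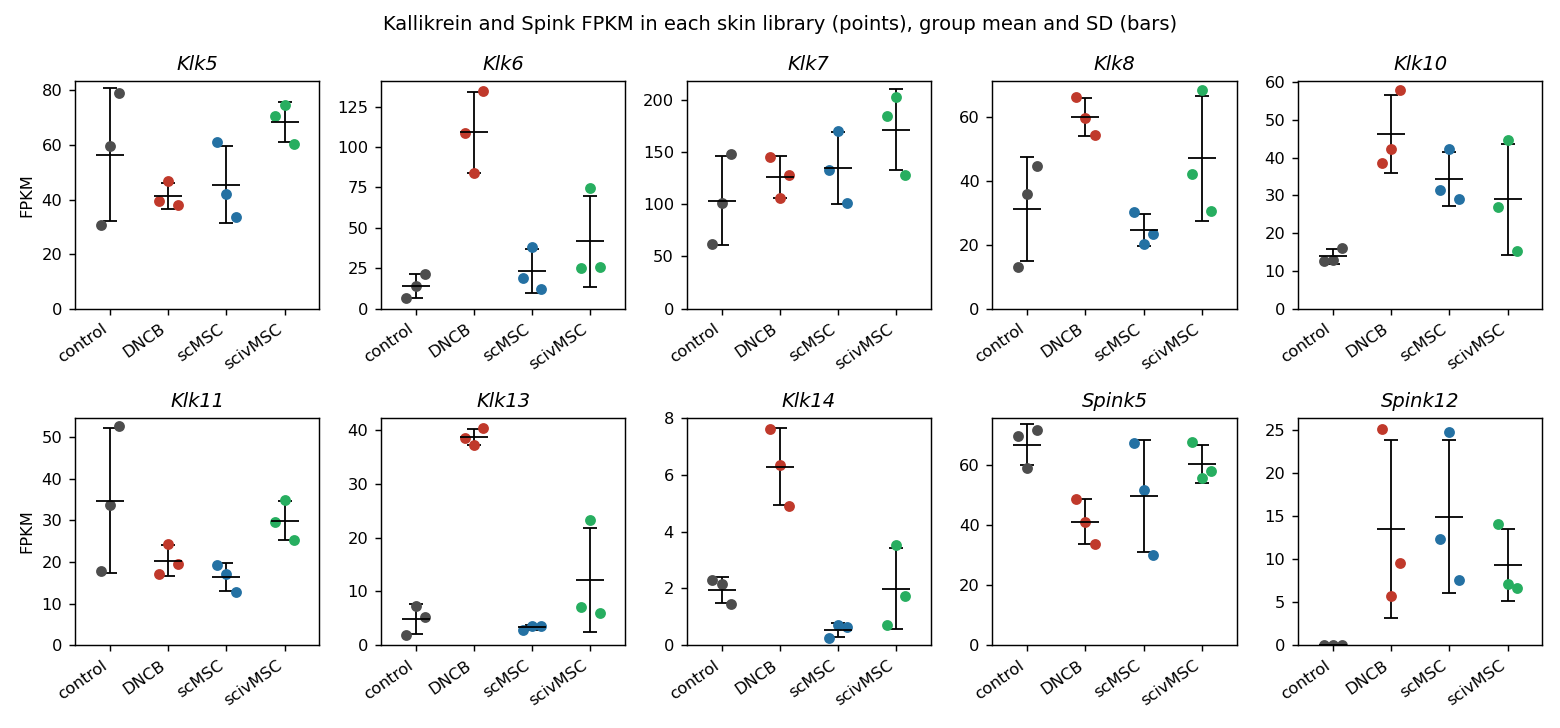
FPKM of the 10 genes in each of the 12 libraries, 1 panel per gene with its own axis from 0. Points are libraries, and the black marks are the mean and SD of 3. All DNCB libraries of Klk6 and Klk13 lie above all libraries of the other groups, and all control libraries of Spink12 are at 0.

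The first comparison asked what DNCB did to these genes. Klk6, Klk10, Klk13 and Spink12 rose, Klk11 and Spink5 fell, and Klk5, Klk7, Klk8 and Klk14 did not pass. Of the 10 members 6 thus passed at an adjusted p under 0.05, where 25.3% of all tested genes did, 12.9% upward and 12.4% downward. The 2 groups did not overlap in 6 members that were higher and 1 that was lower in DNCB, and they did not overlap in 47.7% of all tested genes. The median log2 fold change of the 8 kallikreins was 1.13, beside 0.02 for all tested genes. Adjusted p-values are from edgeR's quasi-likelihood test with Benjamini-Hochberg adjustment over all tested genes, and each fold change stands with its standard error. For a single gene the smallest two-sided p of an exact permutation test of 3 against 3 libraries is 0.10.

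Klk6, a trypsin-like protease also called neurosin, had 6.63, 14.3 and 21.4 FPKM in control 1 to 3 and 109, 84.2 and 134 FPKM in DNCB 1 to 3. Every DNCB library was above every control library, and the gene rose by 2.78 ± 0.58 on the log2 scale, or 6.87-fold (adjusted p = 0.0058). Klk13, another trypsin-like member, had 1.84, 7.35 and 5.31 FPKM in control and 38.5, 37.3 and 40.4 FPKM in DNCB. Its DNCB libraries were close together while the lowest control library, control 1, was well below the others, and the rise was 2.82 ± 0.56 on the log2 scale, or 7.04-fold (adjusted p = 0.0047). Klk10, a member without a well-established activity in skin, had 12.6, 12.8 and 16.1 FPKM in control and 38.6, 42.2 and 58.0 FPKM in DNCB. The groups were again separate, and it rose by 1.56 ± 0.32, or 2.95-fold (adjusted p = 0.0054). These 3 calls held under all alternatives.

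Klk14, a trypsin-like protease with high activity in the cornified layer, had 2.30, 2.14 and 1.44 FPKM in control and 7.61, 6.33 and 4.91 FPKM in DNCB. The groups did not overlap, but the log2 difference of 1.48 ± 0.54 missed the threshold (adjusted p = 0.0683). It passed with DESeq2 (adjusted p = 0.024), with library size alone (0.0377) and with only the 6 libraries compared (0.012). With limma it passed on log2(FPKM + 0.1) (adjusted p = 0.0278), log2(FPKM + 1) (0.00911) and log2(FPKM + 0.01) (0.0367). It also passed when scivMSC 1 (0.0312) or scivMSC 2 (0.044) was left out of the fit. Klk8, or neuropsin, had 12.97, 35.8 and 44.5 FPKM in control and 66.1, 59.5 and 54.3 FPKM in DNCB. All DNCB libraries were higher, control 1 was far below the other control libraries, and the log2 difference of 0.78 ± 0.38 did not pass (adjusted p = 0.161).

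Klk5 and Klk7, the pair best known for shedding, did not pass. Klk5 had 30.6, 59.7 and 79.2 FPKM in control and 39.6, 46.8 and 37.9 FPKM in DNCB, a log2 difference of -0.62 ± 0.29 (adjusted p = 0.142). All DNCB libraries lay inside the wide control range, and with control 1 left out Klk5 passed as lower (adjusted p = 0.0179). Klk7 had 61.8, 101 and 148 FPKM in control and 145, 105 and 128 FPKM in DNCB. Control 1 and 2 were below every DNCB library and control 3 was above them all, so the groups overlapped. The log2 difference was 0.11 ± 0.29 (adjusted p = 0.825).

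Klk11, another trypsin-like member, had 17.9, 33.7 and 52.7 FPKM in control and 17.2, 24.4 and 19.5 FPKM in DNCB. Control 1 lay among the DNCB libraries, and the fall of Klk11 by 0.94 ± 0.31 on the log2 scale was just past the threshold (adjusted p = 0.0467). The call was lost in 9 of the 12 fits that left out 1 library (control 2 or 3, each DNCB library, scMSC 1 or 2, scivMSC 1 or 2), with adjusted p-values up to 0.163 without control 3, and in 8 of 13 other alternatives, among them limma on log2(FPKM + 0.1) (adjusted p = 0.16).

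The inhibitor genes Spink5 (chr18:43963235-44022501 in GRCm38) and Spink12 (chr18:44104407-44108543) are on the plus strand of another chromosome and overlap no other gene. Spink5 had 69.6, 59.1 and 71.8 FPKM in control and 48.9, 40.9 and 33.9 FPKM in DNCB. All DNCB libraries were lower, and Spink5 fell by 0.88 ± 0.25 on the log2 scale, or 1.84-fold (adjusted p = 0.0244). The call was lost without control 1 (0.0649), control 3 (0.0507), DNCB 2 (0.0673) or DNCB 3 (0.0925). Of 13 other alternatives, it was lost with limma on log2(FPKM + 0.1) (0.0547), log2(FPKM + 1) (0.055) and log2(FPKM + 0.01) (0.0561). Scaling by library size alone (0.0598) or to the suprabasal markers (0.215) lost it as well. Spink12, which encodes a short protein with a Kazal-type domain, was at 0 counts in the 3 control libraries and had 25.1, 5.73 and 9.56 FPKM in DNCB. Against a floor of 12 estimated counts per library, about 3 fragments, the mean of the DNCB libraries was at least 71.8-fold higher for Spink12 (adjusted p = 0.00068), and at least 40.8-fold without DNCB 1. The lowest DNCB library was at least 30.4-fold higher, and the fitted fold change is no bound. It stood at 478 to 1899 estimated counts in the DNCB libraries and DNCB 1 was by far the highest.

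**Figure D2:**
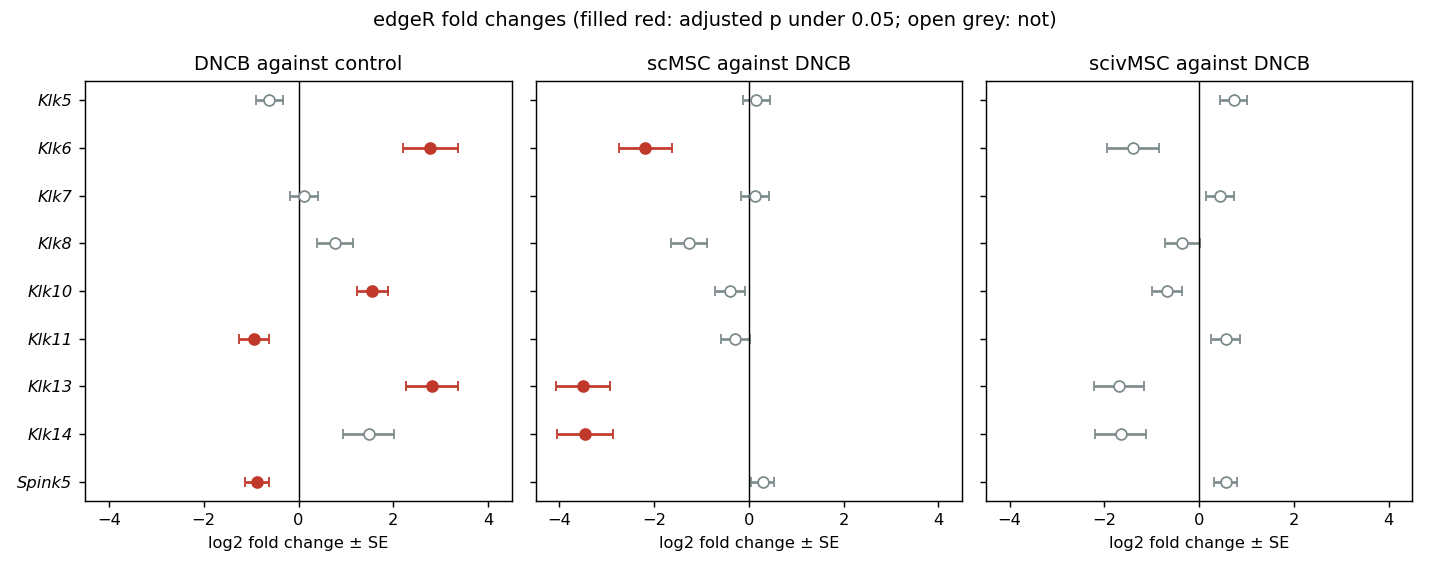
Log2 fold change ± SE from edgeR for 9 genes in 3 comparisons. Filled red points passed at an adjusted p under 0.05 and open grey points did not. Spink12, at 0 in control, is not drawn. Klk6, Klk13 and Klk14 are far below 0 in scMSC against DNCB, and no filled point appears in scivMSC against DNCB.

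The second comparison asked which of these genes differed between DNCB skin with and without MSCs under the skin. Klk6, Klk13 and Klk14 fell and no member rose, while the other 7 did not pass. These 3 of 10 members compare with 12.7% of all tested genes, 5.77% in the downward direction. The groups did not overlap in 4 members, all lower in scMSC, and in 33.1% of all tested genes. The median log2 fold change of the 8 kallikreins was -0.83, beside 0.02 for all tested genes. The same DNCB libraries serve as reference in both MSC comparisons and in the comparison with control.

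Klk13 had 2.81, 3.62 and 3.66 FPKM in scMSC 1 to 3, all far below the DNCB libraries and within the control range. Klk13 fell by 3.49 ± 0.57 on the log2 scale, an 11.3-fold lower level (adjusted p = 0.00397). Klk14 had 0.271, 0.723 and 0.652 FPKM, below every DNCB and every control library, and fell by 3.46 ± 0.59 on the log2 scale (adjusted p = 0.00457). Its scMSC libraries held 29, 75 and 67 estimated counts, about 4 of which stand for 1 fragment. Both calls held under all alternatives.

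Klk6 had 18.6, 38.4 and 12.3 FPKM in scMSC, below all DNCB libraries with scMSC 2 the highest of the group. It fell by 2.18 ± 0.56 on the log2 scale, or 4.55-fold (adjusted p = 0.0285). The call was lost without DNCB 1 (0.0672), DNCB 2 (0.0523), DNCB 3 (0.0808), scMSC 1 (0.082) or scMSC 3 (0.0903). Klk8 had 30.2, 20.4 and 23.3 FPKM, all below DNCB, and the log2 difference of -1.27 ± 0.38 was close to the threshold (adjusted p = 0.0522). It passed with DESeq2 (0.00853), without control 1 (0.0112), control 3 (0.0488), scivMSC 2 (0.043) or scivMSC 3 (0.0451).

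Klk10 had 31.5, 42.4 and 29.1 FPKM in scMSC, which overlapped DNCB (log2 difference -0.39 ± 0.31, adjusted p = 0.493). Klk5 had 61.0, 41.9 and 33.6 FPKM, Klk7 133, 169.6 and 101 FPKM and Klk11 19.2, 17.2 and 12.7 FPKM, with log2 differences between -0.29 and 0.15. Spink5 had 67.3, 51.7 and 30.2 FPKM, with scMSC 1 near control and scMSC 3 below DNCB (log2 difference 0.29 ± 0.25, adjusted p = 0.523). Spink12 had 12.4, 24.8 and 7.60 FPKM, a range that overlapped DNCB (log2 difference 0.20 ± 0.62, adjusted p = 0.898).

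In the comparison of scivMSC with DNCB, 0 of the 10 members passed, where 8.16% of all tested genes did. The groups did not overlap in 3 members that were higher and 3 that were lower in scivMSC, and in 32.7% of all tested genes. At an unadjusted p under 0.05 there were 5 members, beside 22.7% of all tested genes, and DESeq2 called 2, Klk13 and Klk14, beside 15.3% of all genes it gave an adjusted p. Klk6 had 25.3, 74.4 and 25.6 FPKM, Klk13 had 7.07, 23.4 and 5.94 FPKM, and Klk14 had 0.709, 3.52 and 1.73 FPKM in scivMSC 1 to 3. In each of these genes all scivMSC libraries were below all DNCB libraries and scivMSC 2 was nearest to them. The log2 differences were -1.39 ± 0.55 for Klk6 (adjusted p = 0.156), -1.69 ± 0.53 for Klk13 (adjusted p = 0.0812) and -1.66 ± 0.54 for Klk14 (adjusted p = 0.0909).

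The library scivMSC 2 was the highest of its group in 8 of the 8 kallikreins, Klk10 with 26.96, 44.6 and 15.4 FPKM and Klk8 with 42.0, 68.5 and 30.5 FPKM among them. Without it 4 members passed as lower than DNCB, namely Klk6 (adjusted p = 0.0485), Klk10 (0.0359), Klk13 (0.0116) and Klk14 (0.0337), where 4.17% of all tested genes passed as lower. In the same library the 8 stress keratinocyte markers summed to 4977 FPKM, against 1306 and 1220.0 FPKM in scivMSC 1 and 3. Their part in the result was not tested.

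Klk5 had 70.5, 74.6 and 60.4 FPKM, Klk11 29.7, 34.9 and 25.3 FPKM and Spink5 67.7, 55.6 and 57.9 FPKM in scivMSC. All of these were above all DNCB libraries, but the log2 differences of 0.73 ± 0.29, 0.56 ± 0.31 and 0.56 ± 0.25 did not pass (adjusted p = 0.155, 0.319 and 0.205). Klk7 reached 184, 203 and 128 FPKM and overlapped DNCB (log2 difference 0.44 ± 0.29, adjusted p = 0.417). Spink12 had 14.1, 7.10 and 6.62 FPKM, within the DNCB range (log2 difference -0.53 ± 0.62, adjusted p = 0.684).

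Against control, 4 of 10 members passed in scMSC skin, where 18.5% of all tested genes did. Klk10 and Spink12 were higher, as were 10.4% of all tested genes, and Klk11 and Klk14 were lower, as were 8.12%. Klk10 rose by 1.17 ± 0.32 on the log2 scale (adjusted p = 0.0272), with every scMSC library above every control library, and lost the call without control 1 (0.107), control 2 (0.0973), control 3 (0.0642) or scMSC 2 (0.134). Klk14 fell by 1.98 ± 0.56 (adjusted p = 0.0321), and lost the call without control 1 (0.0816), control 2 (0.0693), scMSC 1 (0.0788), scMSC 2 (0.0525) or scMSC 3 (0.07). Klk11 fell by 1.23 ± 0.31 (adjusted p = 0.0207), and lost the call without control 3 (0.0594) or scMSC 3 (0.0725) and with limma on log2(FPKM + 0.1) (0.0565). Spink12 was on average at least 82.5-fold above the control floor, at least 52.6-fold without scMSC 2 and at least 39.9-fold in the lowest library.

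In scivMSC skin 1 of 10 members passed against control, Spink12, which was at least 49.6-fold above the control floor, where 13.2% of all tested genes passed, 7.11% upward. Spink12 was thus above 0 in every library that had received DNCB, with or without MSCs. Klk10 had a log2 difference of 0.88 ± 0.31 (adjusted p = 0.0945) and passed without scivMSC 3 (0.0213). Between scivMSC and scMSC, 0 of 10 members passed, where 0.00457% of all tested genes did, a single gene. At an unadjusted p under 0.05 there were 4 members, Klk8, Klk11, Klk13 and Klk14, each with a higher level in scivMSC, beside 7.5% of all tested genes, and DESeq2 called 0. The largest of these log2 differences were 1.81 ± 0.54 for Klk13 (adjusted p = 0.565) and 1.80 ± 0.55 for Klk14 (adjusted p = 0.571), so a difference between the routes of injection was not shown.

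**Figure D3:**
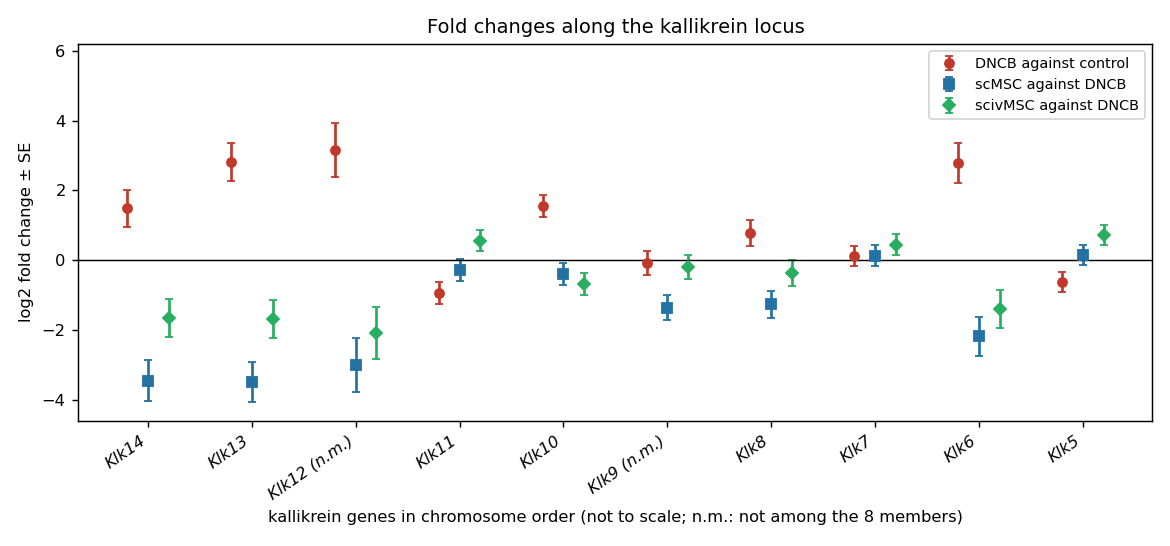
Log2 fold change ± SE of 10 kallikrein genes in their order on chromosome 7 for 3 comparisons. Klk12 and Klk9, which are not among the 8 members, are marked n.m. Klk14, Klk13 and Klk12 at the left and Klk6 near the right show the widest distances between DNCB against control and scMSC against DNCB, and Klk7 stays near 0.

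Along the locus the members that passed were not all neighbours. Klk14 and Klk13 are the first genes of the cluster, and Klk6 lies 134.1 kb from the start of Klk14, between Klk7 and Klk5. Of 18 other kallikrein genes listed, 7 are in the table and 3 were expressed enough to be tested. Klk12, next to Klk13, had 0.0878, 0.119 and 0.677 FPKM in control and 2.16, 3.02 and 3.78 FPKM in DNCB. It rose in DNCB by 3.16 ± 0.78 (adjusted p = 0.0129), and in scMSC, with 0.580, 0.319 and 0.192 FPKM, fell by 3.00 ± 0.77 on the log2 scale (adjusted p = 0.0274). Control 1, control 2 and scMSC 3 were near the average of 0.1 FPKM required for testing, so the size of both changes is not well determined. Klk9, between Klk10 and Klk8, had a log2 difference of -0.07 ± 0.35 between DNCB and control (adjusted p = 0.912) and fell in scMSC against DNCB by 1.37 ± 0.36 (adjusted p = 0.0298). Klk15 was at or near the limit of detection and is given no fold change.

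The makeup of the kallikrein mRNA pool is a description and was given no test. The summed FPKM of the 8 kallikreins averaged 261 ± 111 (SD, n = 3) in control skin and 448 ± 37.2 in DNCB skin, and it averaged 282 ± 60.1 and 402 ± 118 with MSCs given by the scMSC and scivMSC routes. Klk6 and Klk13 made up 7.04% ± 1.18 of it in control and 32.8% ± 3.46 in DNCB, against 9.06% ± 3.05 in scMSC and 12.6% ± 5.33 in scivMSC. Klk5 and Klk7 made up 61.6% ± 1.41, 37.4% ± 2.66, 63.6% ± 1.59 and 61.0% ± 7.23 in the same order of groups. For both pairs the 3 DNCB libraries lay outside the range of every other group, but Klk6 and Klk13 were paired after their values were seen. As these are shares of a sum, a rise of Klk6 and Klk13 lowers the share of the other genes. By their own levels Klk5 and Klk7 did not pass in DNCB against control. Control 1 was the lowest of its group in 7 of the 8 kallikreins, and they summed to 147 FPKM there, against 267 and 368 FPKM in control 2 and 3. It also had the lowest control sum of suprabasal (5146 FPKM) and of granular and cornified markers (2484 FPKM), but not of basal markers (2549 FPKM). The part of these markers in the kallikrein sum was not tested.

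The summed kallikrein FPKM divided by the FPKM of Spink5 was 3.92 ± 1.60 in control and 11.1 ± 2.55 in DNCB, and it was 6.02 ± 1.44 in scMSC and 6.74 ± 2.38 in scivMSC. The DNCB libraries ran from 9.43 to 14.1 and the control libraries from 2.11, in control 1, to 5.13. The highest scivMSC library, at 9.46, reached into the DNCB range. With Spink12 added to the inhibitor side the DNCB ratio was 8.64 ± 2.38, since Spink12 made up 22.8% ± 10.9 of the summed Spink FPKM there, 22.7% ± 8.73 in scMSC and 12.9% ± 3.75 in scivMSC. These ratios compare mRNA levels and say nothing of enzyme activity.

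**Figure D4:**
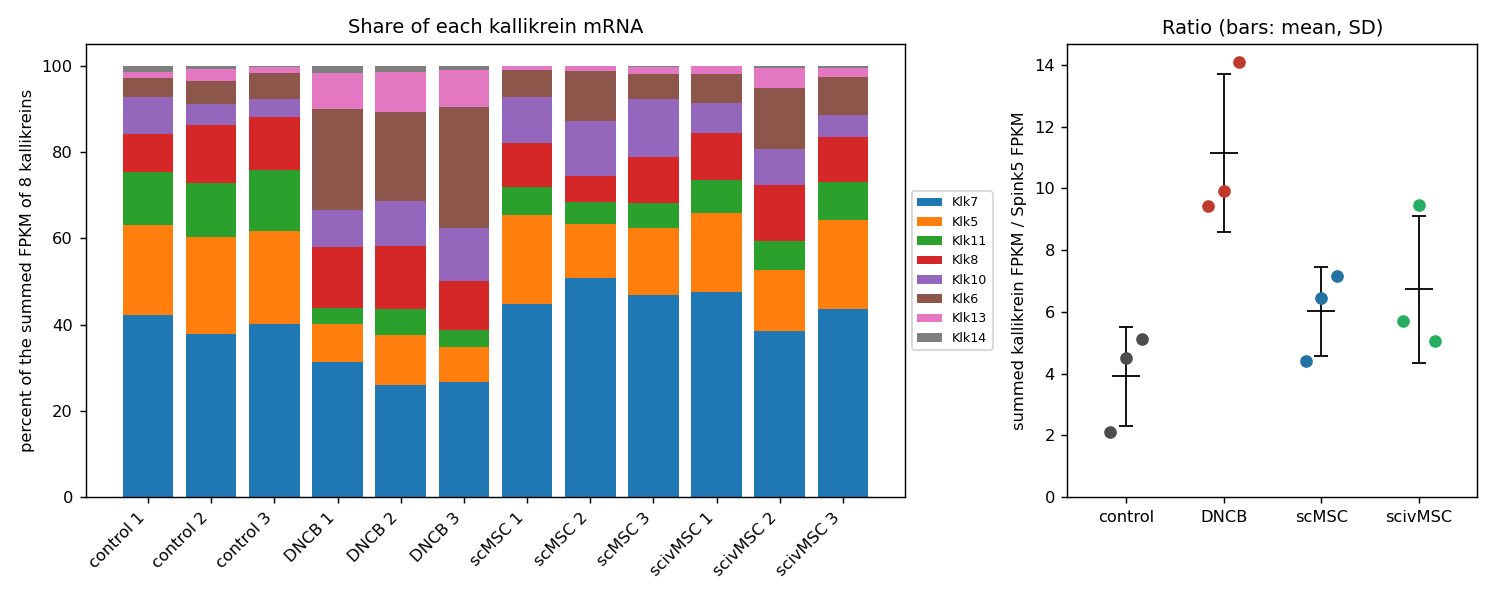
Left, the share of each kallikrein in the summed FPKM of the 8 genes in each library, as stacked bars that add to 100%. Right, the summed kallikrein FPKM divided by Spink5 FPKM, with a point per library and the mean and SD of 3. The Klk6 and Klk13 bands are widest in the 3 DNCB libraries, and the ratio is 9.43 or higher in all of them.

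The proteases that can activate kallikreins or act beside them, and their Kunitz-type inhibitors, changed in both directions. Of 12 tested genes 4 were higher and 2 lower in DNCB than in control, and 5 were higher and 4 lower in scMSC than in DNCB, where 25.3% and 12.7% of all tested genes passed, with medians of -0.06 and 0.73 on the log2 scale against 0.02 for all tested genes in each. St14, the membrane protease matriptase that can cleave pro-kallikreins, had 7.69, 10.8 and 12.0 FPKM in control, 10.6, 9.07 and 11.3 FPKM in DNCB and 24.5, 43.8 and 47.2 FPKM in scMSC. It did not pass between DNCB and control (log2 difference -0.16 ± 0.28, adjusted p = 0.719) and rose in scMSC against DNCB by 1.94 ± 0.28 (adjusted p = 0.00263). Its inhibitors Spint1 and Spint2 rose there as well, by 1.66 ± 0.22 and 1.10 ± 0.15 (adjusted p = 0.00209 for both), as did St14 and Spint2 in scivMSC against DNCB, by 1.29 ± 0.28 (adjusted p = 0.0215) and 1.06 ± 0.15 (adjusted p = 0.00415). Matriptase is also made in hair follicles, and the 7 hair shaft markers measured summed to 1013 to 3118 FPKM in scMSC, 270.4 to 828 FPKM in scivMSC and 12.8 to 70.9 FPKM in DNCB. The part of these markers in the result was not tested.

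Transmembrane proteases of the HAT family split. Tmprss11a, Tmprss11b and Tmprss11d rose in DNCB, Tmprss11b to 5.31, 5.47 and 5.77 FPKM from at most 0.0483 FPKM in control, and all 3 fell in scMSC against DNCB. Tmprss11f had 3.34, 3.91 and 5.84 FPKM in control and 0.841, 1.02 and 1.05 FPKM in DNCB. It fell by 2.34 ± 0.33 on the log2 scale (adjusted p = 0.00115) and rose by 2.34 ± 0.33 in scMSC against DNCB (adjusted p = 0.00239). Tmprss11e rose in DNCB by 3.53 ± 0.51 (adjusted p = 0.00121) and did not pass between scMSC and DNCB (adjusted p = 0.066).

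Of 14 corneodesmosome and desmosome genes, the proteins that kallikreins cut and their partners, 6 were higher and 1 lower in DNCB than in control, with a median log2 fold change of 0.68 beside 0.02 for all tested genes, of which 12.9% were higher and 12.4% lower. Cdsn, encoding corneodesmosin, had 124, 176 and 232 FPKM in control and 82.9, 84.5 and 76.8 FPKM in DNCB. Its groups did not overlap, and it fell by 1.30 ± 0.34 (adjusted p = 0.0179) and rose in scMSC against DNCB by 1.52 ± 0.34 (adjusted p = 0.0156). Dsg1b, a desmoglein, went the opposite way, with a rise of 1.48 ± 0.31 in DNCB (adjusted p = 0.00612) and a fall of 1.25 ± 0.31 in scMSC against DNCB (adjusted p = 0.0235). Of the 14, 1 was higher and 2 were lower in scMSC than in DNCB, where 12.7% of all tested genes passed. In scivMSC against DNCB 0 of the 14 passed, beside 8.16% of all tested genes.

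Of 5 other tested Spink genes, 1 passed between DNCB and control, where 25.3% of all tested genes did. The gene that passed was Spink4, at 2.27, 3.03 and 1.61 FPKM in control and listed at 0 in the 3 DNCB libraries (adjusted p = 0.0176). Spink6, a kallikrein inhibitor in skin, had 6.21, 3.10 and 2.15 FPKM in control and 0.865, 0 and 0 FPKM in DNCB, groups that did not overlap, but did not pass (adjusted p = 0.0564). Of 11 other protease inhibitors tested, 4 were higher and 1 lower in DNCB, and 1 was higher and 4 lower in scMSC against DNCB, where 25.3% and 12.7% of all tested genes passed. Their median log2 fold changes were 0.55 and -0.33, beside 0.02 for all tested genes in each. Slpi, the secretory leukocyte protease inhibitor, had 2.10, 1.10 and 1.46 FPKM in control and 51.9, 42.8 and 52.3 FPKM in DNCB. It rose by 4.78 ± 0.69 (adjusted p = 0.00119), and fell in scMSC by 4.08 ± 0.66 (adjusted p = 0.00379).

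Of 7 other proteases of the cornified layer, only Ctsc, cathepsin C, passed in DNCB against control, beside 25.3% of all tested genes. It rose by 1.95 ± 0.27 (adjusted p = 0.00103). In scMSC against DNCB 0 of the 7 passed (Ctsc adjusted p = 0.0907), beside 12.7% of all tested genes. In scivMSC against DNCB 1 passed, Ctsc, which was lower, beside 8.16% of all tested genes. Ctsc stayed higher than in control in scMSC and in scivMSC. Of 11 protease-activated receptors and proteins that kallikreins can process, 3 rose and 1 fell in DNCB, namely F2r, Il1b and Mmp9 upward and Flg2 downward, where 25.3% of all tested genes passed. The median log2 fold changes of these lists in DNCB against control were 0.10 and 0.16, beside 0.02 for all tested genes. F2rl1, the receptor PAR-2 that KLK5 and KLK14 can activate, had a log2 difference of -0.46 ± 0.28 between DNCB and control (adjusted p = 0.261), and rose in scMSC by 1.86 ± 0.29 (adjusted p = 0.0031) and in scivMSC by 1.17 ± 0.28 (adjusted p = 0.0304) against DNCB.

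**Figure D5:**
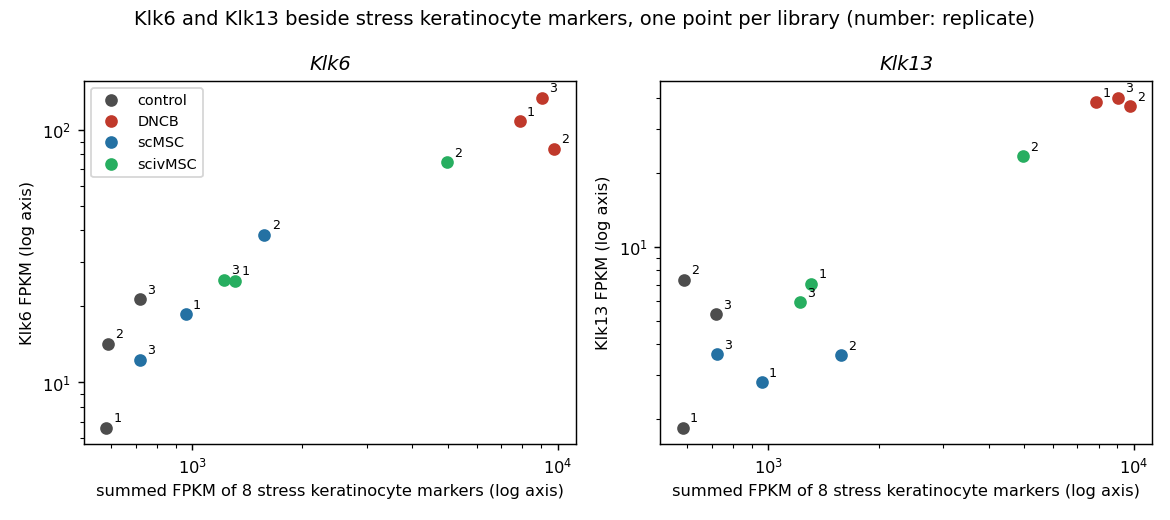
Klk6 (left) and Klk13 (right) FPKM against the summed FPKM of 8 stress keratinocyte markers, both on log axes, 1 point per library with its replicate number. The 3 DNCB libraries sit at the upper right, with 7856 to 9751 FPKM of markers, and scivMSC 2, at 4977 FPKM, is nearest to them.

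Markers of some epidermal layers also differed between the groups. All 8 stress keratinocyte markers, keratins and cornified envelope genes of injured or thickened epidermis, rose in DNCB, from a summed 582 to 718 FPKM to 7856 to 9751 FPKM, and stood at 721 to 1576 FPKM in scMSC and 1220.0 to 4977 FPKM in scivMSC. The 8 basal markers summed to 2204 to 3063 FPKM in control and 8229.9 to 10507 FPKM in DNCB, and to 1781 to 2622 FPKM and 2921 to 5541 FPKM in scMSC and scivMSC. Of these 8, 4 were higher in DNCB than in control, Krt5, Krt14, Itga6 and Trp63, while Krt15 was lower and 3 did not pass, with a median log2 fold change of 0.47. The 12 granular and cornified markers summed to 2484 to 6031 FPKM in control and 1259 to 1646 FPKM in DNCB, with 6 lower and 2 higher. The sums of the 8 suprabasal markers overlapped between control (5146 to 12174 FPKM) and DNCB (7097 to 11385 FPKM), and 2 of the markers were lower. Of all tested genes 12.9% were higher and 12.4% lower in DNCB than in control.

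The 7 neutrophil markers summed to 120.4 to 207 FPKM in control and 2464 to 3433 FPKM in DNCB. Their sum stood at 15.8 to 65.3 FPKM in scMSC and 34.3 to 177 FPKM in scivMSC. S100a8 and S100a9 made up most of it in every library, so it mainly follows these genes. All 7 passed as higher in DNCB than in control, beside 12.9% of all tested genes. Ly6g was at 0 in every control, scMSC and scivMSC library and had 2.67, 4.93 and 1.83 FPKM in DNCB. All 8 sebaceous gland markers passed as lower in DNCB than in control, as did 12.4% of all tested genes. Their sum went from 677 to 823 FPKM to 77.7 to 107 FPKM. All 8 rose against DNCB in scMSC (387 to 688 FPKM) and in scivMSC (385 to 912 FPKM). In these comparisons 12.7% and 8.16% of all tested genes passed in either direction. Of 6 fibroblast markers 4 passed as higher in DNCB than in control, as did 12.9% of all tested genes. The 6 summed to 232 to 346 FPKM in control and 1916 to 2233 FPKM in DNCB. In scMSC against DNCB 3 of the 6 passed as lower, as did 5.77% of all tested genes, with a sum of 245 to 750.0 FPKM. The part of these cell types in the kallikrein differences was not tested. When the fit was scaled to the basal markers instead of to all genes, Klk6, Klk10, Klk13 and Spink12 passed in DNCB against control. Klk6, Klk13 and Klk14 passed in scMSC against DNCB, and the same held with the suprabasal markers. Of 21890 tested genes 3632 passed in DNCB against control on the basal and 1599 on the suprabasal scale. Each scale was chosen after seeing the data. It rests on the median of 8 markers that did not all change alike, so it is no test of tissue makeup. Spink5 lost its call in DNCB against control on the suprabasal scale (adjusted p = 0.215) and passed as higher in scMSC than in DNCB on the basal scale (adjusted p = 0.0136). On the basal scale the median of all genes moved by 0.72 on the log2 scale in scMSC against DNCB.

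For each member the closest profiles over the 12 libraries were sought among 14376 genes that averaged 1 FPKM or more, by the root mean square difference of centred log2(FPKM + 0.1) values. Klk5 was closest to Calm4 (0.16) and Asprv1 (0.18), Klk7 to Elovl7 (0.18) and Mpzl3 (0.19), and Klk11 to Alox12b (0.22) and Wfdc5 (0.24). Klk13 was closest to Stfa3 (0.30) and Cstdc5 (0.33), and Klk6 to Gm14328 (0.31) and Gm6166 (0.39). Klk8 was closest to Gm6551 (0.22) and Krt1 (0.26), Klk10 to Pxdc1 (0.26) and Lhfp (0.27), and Klk14 to Gsta4 (0.54). Spink5 was closest to Anxa8 and Ank (both 0.18), and Spink12 to Lrrc15 (1.15) and Crnn (1.43). These differences grow with a gene's own spread, the root mean square of its centred values. That spread was 0.39 for Spink5 and 3.01 for Spink12, where it depends on the 0.1 added to the control values of 0. The differences of separate members are therefore not on a common scale. Genes of the stefin cluster, such as Stfa3 and Cstdc5, are near-identical copies that can share reads. Among the members themselves Klk5 and Klk11 were the nearest pair (0.29), and Klk6 and Klk13 differed by 0.62. The spread was 0.45 for Klk5 and 0.54 for Klk11, but 1.30 or more for Klk6 and for Klk13. These differences therefore do not show which of these pairs was more alike relative to its spread.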

How the data were processed

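Dorsal skin RNA of 12 mice, 3 in each of 4 groups named by the sample titles, was analysed. The authors deposited for each gene a FPKM value, scaled for gene length and library size, and a whole-number estimated count that is not normalized between libraries. Per the labels, the submitters' processing notes name Bowtie 0.12.2, HISAT2 2.0, StringTie 1.3.0 and the build mm8, while the gene coordinates in the table are those of GRCm38. Among low estimated counts (1 to 18), multiples of 4 made up 38.9% to 41.2% in each library, so 1 fragment was taken to be about 4 estimated counts. Strand use in counting is not given in the sources used here, so reads of a gene and its antisense partner cannot be told apart. Libraries held 63877153 to 75134001 estimated counts, and floors cover counting error only. Whether mice shared cages or batches is not given in the sources used here, and p-values measure the spread between these mice.

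Genes averaging 0.1 FPKM or more entered edgeR 4.0.16 in R 4.3.3 (quasi-likelihood test, TMM factors, 4 groups in 1 model, no covariate), with Benjamini-Hochberg adjustment in each of 6 comparisons and a threshold of 0.05. The common biological coefficient of variation was 0.420. Standard errors were derived from the F statistic. A Spink12 fold was set against a floor of 12 estimated counts per control library. The script was tested on simulated counts with known changes. Alternatives changed the scaling, the tool (DESeq2 1.42.0, limma 3.58.1 on log2 of FPKM plus a pseudocount), the filter, the fold threshold, the libraries fitted and the replicate block, and left out each library. Scaling to keratinocyte markers was chosen after seeing the data. Summaries and figures used Python 3.11.15 with pandas 2.3.3, numpy 2.4.6, scipy 1.17.1 and matplotlib 3.10.9. Promoter windows were RefSeq sequences on GRCm38.p6, and gene models were GENCODE M21.

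The rule for the members goes by gene name and uses no measured value, but it was set, like the gene and marker lists, with earlier results of these data known. Named genes are the 10 members, any tested gene of the lists of other kallikreins, activating proteases, corneodesmosome genes and other Spink genes, up to 4 genes of each other list with the largest DNCB change among those that passed, and the 2 genes closest in profile to each member. F2rl1 and the sum of Klk6 and Klk13 were singled out after their values were seen. Other Klk1b and Spink genes were not analysed here where the table does not list or test them. A result of the profile comparison is not reported here.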

Additional observations from a re-analysis of the deposited data

How the results depend on the processing

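Klk6, Klk10, Klk13 and Spink12 in DNCB against control and Klk13 and Klk14 in scMSC against DNCB passed in all 13 other alternatives and all 12 fits without 1 library. For single members, 1388 of 1500 values from alternatives kept direction and side of the threshold, 51 lost the threshold, 35 gained it and 26 turned direction, all 26 in members that did not pass. The causes were not tested.

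Numbers of genes that passed moved by over 1.5 times as follows. In DNCB against control they were 3632 on the basal and 1599 on the suprabasal marker scale and 3098 with a log2 fold over 1 required, against 5541. In scMSC against DNCB they were 7649 and 1517 on these scales, against 2786. In scivMSC against DNCB they were 3215 with DESeq2, 1179 with the replicate block and 769 on the suprabasal scale, against 1787. In scMSC against control they were 2131 with only the 6 libraries compared, 1504 on the suprabasal scale and 2040 with the fold required, against 4049. In scivMSC against control they were 1103 with only the 6 libraries, 769 on the basal and 324 on the suprabasal scale and 1500 with the fold required, against 2899. In scivMSC against scMSC they were 136 with DESeq2, 2 with limma at a pseudocount of 0.1 or 1, 3 with only the 6 libraries and 0 on both marker scales, against 1. A geometric mean over each marker list was tried first and dropped, since Krt77 alone set the suprabasal scale.

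Members that passed moved in scivMSC against DNCB from 0 to 2 (Klk13 and Klk14) with DESeq2 and with limma at a pseudocount of 0.1 or 1, to 1 (Klk5) with only the 6 libraries, to 1 (Klk13) with the replicate block and to 1 (Klk13) on the suprabasal scale. In scMSC against control they fell from 4 to 2 (Klk10 and Spink12) with only the 6 libraries and on both marker scales, and in scivMSC against control they went from 1 to 2 with library size alone, which added Klk10.

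Leaving out 1 library at a time gave 3811 to 5753 genes and 4 to 6 members in DNCB against control, 1541 to 3038 and 2 to 4 in scMSC against DNCB, and 558 to 1982 and 0 to 4 in scivMSC against DNCB. It gave 2317 to 4303 and 2 to 4 in scMSC against control, 1339 to 3079 and 1 to 2 in scivMSC against control, and 1 to 5 genes and 0 members in scivMSC against scMSC. The log2 ratio of summed kallikrein to Spink5 FPKM against control ran from 1.19 to 1.83 in DNCB, 0.29 to 0.93 in scMSC and 0.43 to 1.07 in scivMSC.

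The replicate block left 5 members in DNCB against control (Klk11 was lost, adjusted p = 0.0677), 3 in scMSC against DNCB and 4 in scMSC against control. The replicate numbers only name the mice: deviations of same-numbered libraries correlated at -0.21 to 0.15 over 18 pairs, 1 of them over 0.1, and 2 of 12 libraries were closest to one of their own number.

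The log2 values that turned direction were, on the suprabasal scale, Klk5 0.20 (scMSC against control) and -0.026 (scivMSC against scMSC), Klk7 -0.37 (scivMSC against scMSC), Klk8 0.27 and Klk13 0.15 (scMSC against control), Klk10 0.080 and Klk11 0.19 (scMSC against DNCB) and Spink5 -0.30 (scivMSC against scMSC). On the basal scale they were Klk7 -0.19 (DNCB against control) and -0.16 (scivMSC against scMSC), Klk10 0.33 and Klk11 0.40 (scMSC against DNCB) and Spink5 -0.14 (scivMSC against scMSC), and with library size alone Klk14 0.015 (scivMSC against control). Without 1 library, ranges that crossed 0 were -0.074 to 0.34 for Klk5 and -0.14 to 0.31 for Klk7 in scMSC against DNCB, -0.22 to 0.34 for Klk5 and -0.83 to 0.23 for Klk14 in scivMSC against control, -0.11 to 0.93 for Klk6 and -0.070 to 0.49 for Klk7 in scMSC against control, -0.18 to 0.37 for Klk7 in DNCB against control, -0.72 to 0.015 for Klk10 in scivMSC against scMSC, and for Spink12 -0.47 to 1.01 in scMSC and -0.95 to 0.28 in scivMSC against DNCB.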
